A study of Mus musculus with 12 samples.

Results

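Epidermal keratins were examined in the back skin of mice: Krt5 and Krt14 of the basal layer, Krt1, Krt10 and Krt2 of the suprabasal layers, and Krt6a, Krt6b, Krt16 and Krt17, which are known as stress or injury keratins. The 9 genes were chosen by name, with earlier results of these data known, and they are 9 of the 55453 genes that were counted. All 9 had enough counts to be tested, among 18311 genes tested. Bulk RNA-Seq was made from the whole skin of 12 mice, 3 in each of 4 groups, and the data are counts per gene.

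The WT PBS mice (numbers 159, 160 and 161) were wild type C57BL/6 animals injected with PBS, and the WT BLM mice (145, 146 and 147) were wild type animals injected with bleomycin, a DNA-damaging drug used to make skin fibrosis. The KO PBS mice (136, 137 and 139) and the KO BLM mice (141, 143 and 144) lacked Thy-1, a surface glycoprotein of fibroblasts and other cells, and received the same injections. The methods give female KO mice of 8 to 12 weeks and littermate controls, all on the C57BL/6 background. Bleomycin was given under the skin of the back at 10 mg/kg per day, for up to 14 days in the methods and for 21 days in the deposited design, and the skin was taken on day 21. The deletion is not limited to 1 cell type in the KO animals, and the injections reached 2 spots of the back. Each library is 1 mouse, and no batch is labelled.

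Keratins are the intermediate filament proteins of epithelial cells, and each filament pairs a type I with a type II chain. Dividing basal keratinocytes make the pair Krt5 and Krt14, and cells that leave the basal layer switch to Krt1 and Krt10, with Krt2 added higher up in some skin regions. Krt6a, Krt16 and Krt17 are made by parts of the hair follicle in resting skin. Together with Krt6b they appear in the epidermis between follicles after wounding or in inflammation. Krt17 is also made in the growing follicle.

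The type II genes lie together on chromosome 15 and the type I genes on chromosome 11, all on the minus strand of GRCm38. Krt6b (chr15:101676023-101680287) and Krt6a (chr15:101689910-101694307) are neighbours, and their coding sequences are identical at 97.8% of 1659 aligned bases. Since the results of these near copies differ widely, the stretch of coding sequence in which they differ most is shown first. This stretch is 90 bases at coding positions 787 to 876, read 5′ to 3′ on the coding strand with the 12 differing bases in capitals. It lies at chr15:101692484-101692573 in Krt6a and at chr15:101678303-101678392 in Krt6b.
Krt6a: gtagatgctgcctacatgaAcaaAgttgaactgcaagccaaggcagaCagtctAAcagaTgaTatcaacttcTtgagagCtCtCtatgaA
Krt6b: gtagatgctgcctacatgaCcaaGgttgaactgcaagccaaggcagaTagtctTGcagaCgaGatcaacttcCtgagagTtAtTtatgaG
The next stretch, at coding positions 34 to 123, is the same in both genes, so a read that falls wholly inside it cannot be assigned to either.
Krt6a and Krt6b: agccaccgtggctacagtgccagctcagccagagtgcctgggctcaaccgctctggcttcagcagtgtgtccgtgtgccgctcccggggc
Of all windows of 75 bases in the mRNA, 42.3% in Krt6a and 39.6% in Krt6b also occurred in another gene. The shares were 28.9% in Krt16, 5.91% in Krt14 and 5.18% in Krt5, and 0 windows were shared in Krt17, Krt1, Krt10 and Krt2. The read length and the treatment of shared reads are not given in the sources used here, so the levels of Krt6a, Krt6b and Krt16 are less certain than the others. In the WT PBS mice, Krt6a had 13924 to 15425 counts beside 6 to 15 counts of Krt6b, which bounds how many Krt6a reads could have been given to Krt6b. Krt6b reads given to Krt6a are not bounded in this way. Krt6a levels, and ratios to Krt6a, are therefore less certain in mice with much Krt6b. Gm11597, which shares most with Krt16, had 0 to 6 counts in every mouse.

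Library totals ran from 26473700 to 38890450 counts. Thy1, the targeted gene, was counted in all 12 mice. Its level was 123 ± 23.7 CPM after PBS and 332 ± 93.8 CPM after bleomycin in WT mice, and 73.3 ± 25.9 and 103 ± 22.4 CPM in KO mice (SD, n = 3 each), where CPM is counts scaled to a fixed library total after TMM normalization. Which exons the deletion removes is not given in the sources used here, so these counts are no full check of the genotype. Genes made by growing hair (32 genes of the shaft and of the inner root sheath) separated the mice into states that did not follow the groups in KO skin. Their summed level was 52611 to 79108 CPM in WT PBS and 77.9 to 887 CPM in WT BLM mice. In KO PBS mice it was 85235 CPM in mouse 136, 68.8 in mouse 137 and 394 in mouse 139, and in KO BLM mice 40317 CPM in mouse 141, 3763 in mouse 143 and 6442 in mouse 144. In WT mice, bleomycin and hair state therefore cannot be told apart. KO PBS mouse 136 and KO BLM mouse 141 stood apart from the other mice of their groups, what sets them apart cannot be told from the counts, and results that rest on them are given with and without them. Skeletal muscle genes (10 genes) summed to 5905 to 6677 CPM in WT PBS and 19992 to 41218 CPM in WT BLM mice, fibroblast matrix genes (8) to 6343 to 8673 and 12634 to 40179 CPM, and macrophage genes (8) to 247 to 609 and 1115 to 1857 CPM. Melanocyte genes (5) summed to 1199 to 1572 and 48.0 to 116 CPM, and proliferation genes (9) to 741 to 841 and 216 to 313 CPM. In KO mice the muscle sum was 7723 to 32063 CPM after PBS and 11948 to 22135 CPM after bleomycin, the melanocyte sum 76.5 to 639 and 351 to 716 CPM, and the proliferation sum 158 to 638 and 414 to 637 CPM. The part of these genes in the keratin results was not tested. The 9 keratins together took 1.10% to 4.51% of all counts in a mouse and Krt5, Krt14 and Krt10, which mark epidermis, each stood at 1699 CPM or more in every mouse.

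On a scale of CPM per kilobase of exon, the order of the 9 keratins in WT PBS skin was Krt5 at 1695 ± 87.6, Krt17 at 1693 ± 217, Krt14 at 1154 ± 50.8, Krt10 at 989.9 ± 284, Krt6a at 183 ± 17.7, Krt1 at 101 ± 27.5, Krt16 at 23.1 ± 4.70, Krt2 at 2.51 ± 0.484 and Krt6b at 0.161 ± 0.0656 (SD, n = 3). Krt5 and Krt17 overlapped between mice, as did Krt14 and Krt10, and every other neighbour in this order was separate. In WT BLM skin Krt10 stood first at 3401 ± 1474, followed by Krt14, Krt5, Krt1 and Krt17 at 729 ± 204. All neighbours in the WT BLM order overlapped between mice. Krt2 stood last in WT BLM skin and Krt6b last in WT PBS skin.

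**Figure D1:**
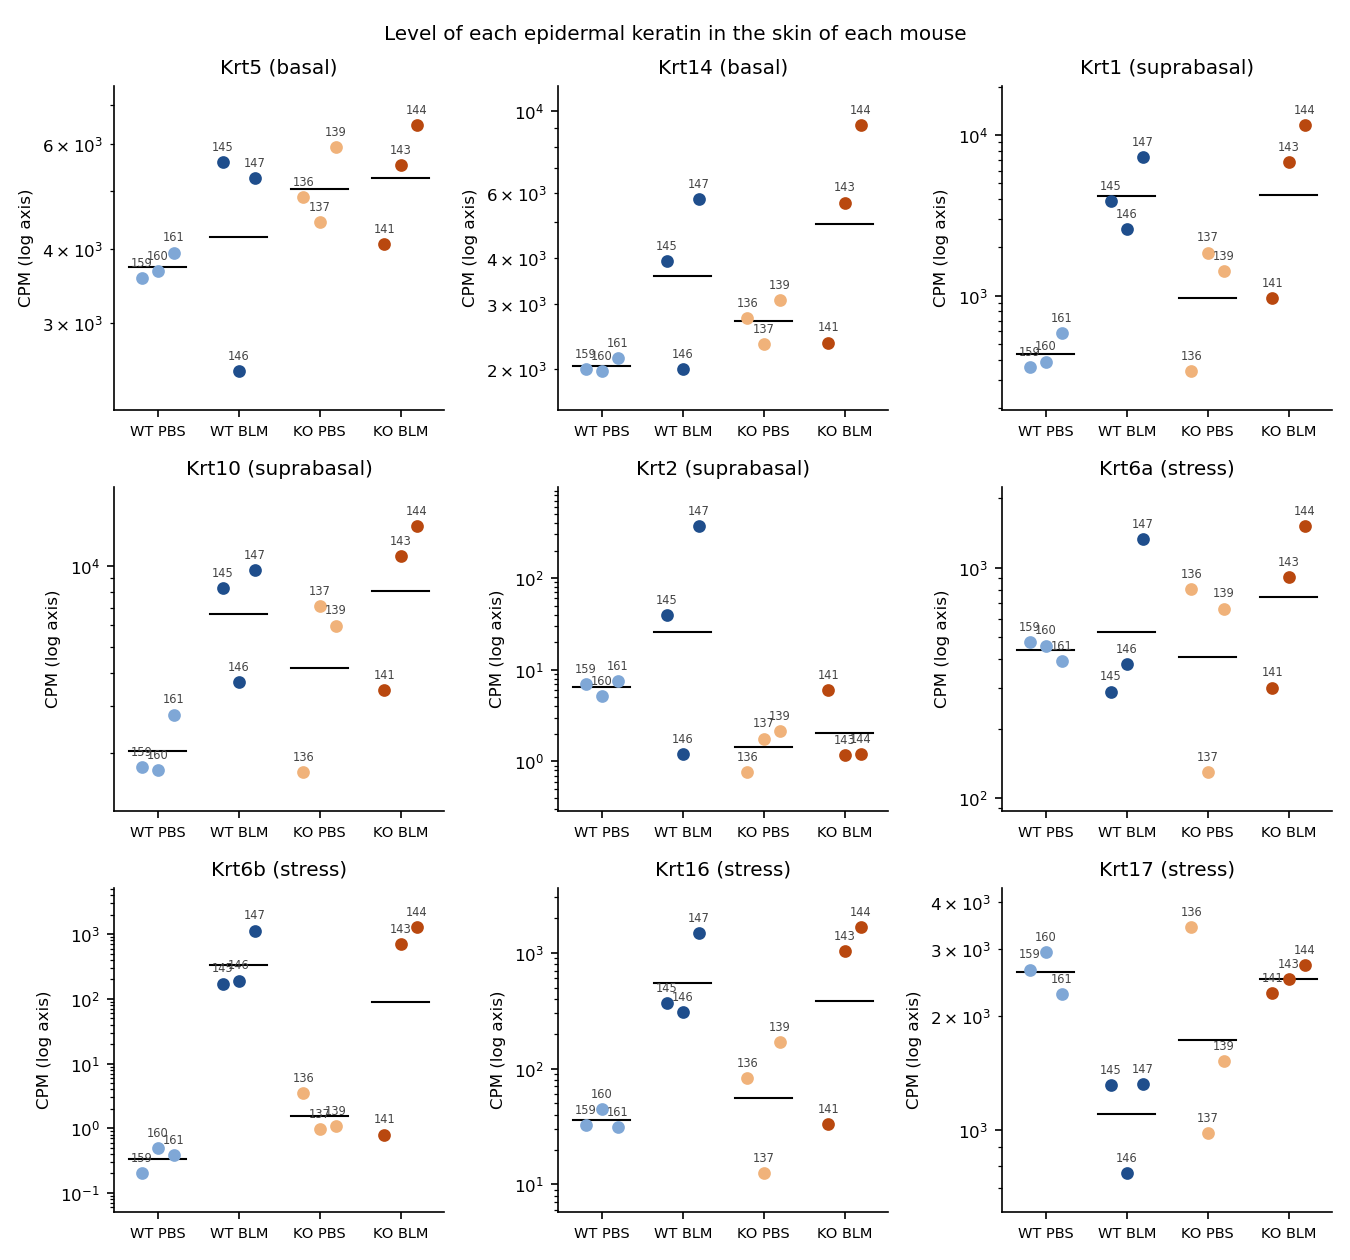
Level of each keratin (CPM, log axis) in each of the 12 mice, 1 point per mouse with its number, by group, with the geometric mean of the group as a line. Krt6b lay between 0.203 and 3.46 CPM in all PBS mice and in KO BLM mouse 141, and between 171 and 1278 CPM in the other 5 bleomycin mice.

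The basal keratins did not pass the test for a change with bleomycin in either genotype. Krt5, the type II chain of the basal pair, was at 3565, 3668 and 3938 CPM in WT PBS mice and at 5602, 2487 and 5266 CPM in WT BLM mice. The WT groups overlapped, because mouse 146 lay below every PBS mouse and the other two lay above. The log2 fold change was 0.26 (SE 0.32, adjusted p = 0.55 by edgeR's quasi-likelihood test with Benjamini-Hochberg adjustment, as for every adjusted p unless another tool is named). Krt14, its type I partner, was at 1988, 1968 and 2132 CPM in WT PBS mice and at 3915, 1992 and 5766 CPM in WT BLM mice, a log2 fold change of 0.94 (SE 0.47, adjusted p = 0.141). Mouse 146 again had the level of a PBS mouse, and the other two were higher. In bulk skin, fewer cells of a type and less RNA per cell cannot be told apart.

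In KO skin Krt5 was at 4883, 4438 and 5927 CPM after PBS and at 4069, 5532 and 6458 CPM after bleomycin, a log2 fold change of 0.07 (SE 0.32, adjusted p = 0.918). Krt14 was at 2743, 2326 and 3062 CPM after PBS and at 2349, 5633 and 9133 CPM after bleomycin, a log2 fold change of 1.07 (SE 0.48, adjusted p = 0.243). Mouse 141 sat inside the PBS range of Krt14, and mice 143 and 144 lay above it. The ratio of Krt14 to Krt5, per length within a mouse, was 0.671 to 0.697 in WT PBS mice and 0.646 to 0.702 in KO PBS mice. It was 0.873 to 1.37 in WT BLM mice, 1.27 and 1.77 in KO BLM mice 143 and 144, and 0.721 in mouse 141. All 6 PBS mice lay below all 6 bleomycin mice in this ratio, which was not tested.

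Of the 3 suprabasal keratins, Krt1 and Krt2 rose after bleomycin in WT skin and Krt10 missed the threshold. Krt1, the first type II keratin of cells that leave the basal layer, was at 360.5, 390.0 and 584 CPM in WT PBS mice and at 3889.9, 2605 and 7307 CPM in WT BLM mice. Every bleomycin mouse lay above every PBS mouse, and Krt1 rose 10.3-fold (log2 fold change 3.37, SE 0.87, adjusted p = 0.0183). Without WT PBS mouse 159 or 160 or WT BLM mouse 147 the adjusted p was 0.0667, 0.0655 and 0.0534. Krt10, its type I partner, was at 1769, 1724 and 2786 CPM in WT PBS mice and at 8265, 3677 and 9626 CPM in WT BLM mice. These groups were also separate, with a log2 fold change of 1.78 (SE 0.64), but the adjusted p of 0.0523 missed the threshold of 0.05. DESeq2 placed Krt10 under it.

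Krt2, a keratin of the upper layers, behaved unevenly. It was at 7.0, 5.13 and 7.54 CPM in WT PBS mice and at 39.5, 1.21 and 367 CPM in WT BLM mice. Krt2 rose by the test (log2 fold change 4.37, SE 1.45, adjusted p = 0.0413), but mouse 146 lay below the PBS mice and the groups overlapped. Without mouse 147 the log2 fold change was 1.63 and the adjusted p 0.282, and the call was also lost without any 1 of the 3 WT PBS mice or without KO BLM mouse 143 or 144.

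In KO skin the suprabasal keratins varied widely within both groups, and 0 of the 3 passed the test. Krt1 was at 340.0, 1849.9 and 1427 CPM in KO PBS mice 136, 137 and 139, and at 966, 6751 and 11482 CPM in KO BLM mice 141, 143 and 144. Mouse 141 lay inside the PBS range, and the log2 fold change of 2.41 (SE 0.83) had an adjusted p of 0.169. Krt10 was at 1699, 7083 and 5981 CPM after PBS and at 3439, 10863 and 14074 CPM after bleomycin, a log2 fold change of 0.94 (SE 0.62, adjusted p = 0.408). Krt2 was low throughout, at 0.765, 1.77 and 2.15 CPM after PBS and at 6.03, 1.18 and 1.20 CPM after bleomycin (log2 fold change 0.84, SE 1.36, adjusted p = 0.751). The highest Krt2 level of KO skin was that of mouse 141.

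Krt10 stood 9.23 to 10.2 times above Krt1 per length in WT PBS mice and 2.75 to 4.44 times above it in WT BLM mice. The ratio was 8.0 to 10.4 in KO PBS mice, 3.36 and 2.56 in KO BLM mice 143 and 144, and 7.43 in mouse 141. Its size depends on the length used for Krt1, whose exons span 4415 bases while its longest coding transcript has 2455. With transcript lengths the ratio was 5.18 to 5.75 in WT PBS and 1.54 to 2.49 in WT BLM mice, and the separation of the mice was the same.

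The stress keratins did not move as a block in WT skin. Krt6b and Krt16 rose, Krt6a did not pass the test, and Krt17 fell. Krt6b was at 0.203, 0.493 and 0.382 CPM in WT PBS mice and at 171, 191 and 1141 CPM in WT BLM mice. The groups were far apart, with a log2 fold change of 10.42 (SE 2.18, adjusted p = 0.00936), and this was the largest change among the 9 keratins. It passed the threshold with each of the 12 mice left out in turn, at adjusted p values from 0.00312 to 0.0437, and the log2 fold change was 8.96 at its lowest, without mouse 147. The WT PBS level rests on 6 to 15 counts per mouse.

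Krt6a, the close copy of Krt6b and its neighbour, was at 473, 458 and 393 CPM in WT PBS mice and at 289.7, 381 and 1333 CPM in WT BLM mice. Bleomycin mice 145 and 146 lay below the PBS mice and mouse 147 above them (log2 fold change 0.60, SE 0.76, adjusted p = 0.555). Without mouse 147 the sign turned, to -0.40. Krt16, the type I stress keratin that pairs with the Krt6 chains, was at 32.5, 44.5 and 31.2 CPM in WT PBS mice and at 366, 308 and 1481 CPM in WT BLM mice. The groups were separate, and Krt16 rose 19.9-fold (log2 fold change 4.31, SE 1.30, adjusted p = 0.0303). The adjusted p of Krt16 lay between 0.0806 and 0.0902 without any 1 of WT PBS mice 159, 160 and 161 or WT BLM mouse 147.

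Krt17, a type I keratin of the follicle and of injured epidermis, went the other way. It was at 2648, 2951 and 2279 CPM in WT PBS mice and at 1311, 767 and 1317 CPM in WT BLM mice, so every bleomycin mouse lay below every PBS mouse. Krt17 fell 2.32-fold (log2 fold change -1.21, SE 0.41, adjusted p = 0.0436). This call was lost without any 1 of the 6 WT mice and without KO BLM mouse 143 or 144, with adjusted p values up to 0.123.

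**Figure D2:**
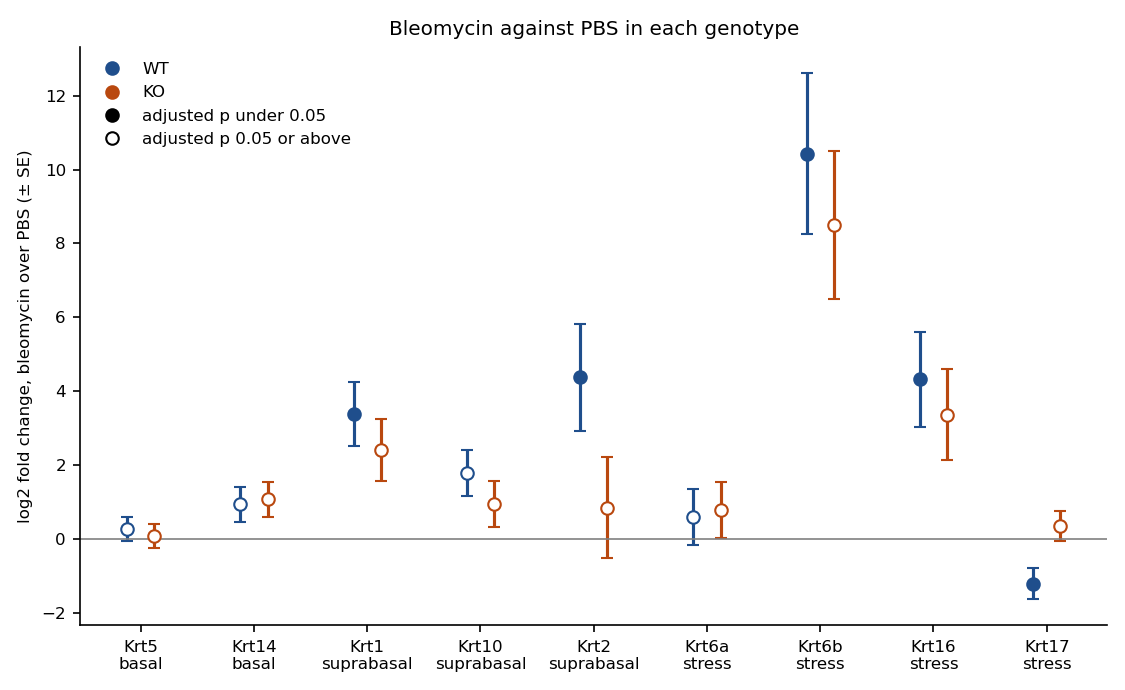
log2 fold change of each keratin, bleomycin over PBS, with its standard error as a bar, in WT (blue) and KO (orange) skin. Filled points passed an adjusted p under 0.05, which 5 WT points and 0 KO points did; Krt6b stood highest in both genotypes, at 10.42 and 8.50.

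In WT skin 5 of the 9 keratins passed the test, 4 higher and 1 lower after bleomycin, where 34.0% of all genes tested passed it. The groups were separate for 5 keratins (Krt1, Krt10, Krt6b and Krt16 higher, Krt17 lower), beside 57.0% of all genes. The median log2 fold change of the 9 was 1.78, beside 0.018 over all genes. With the mean of the hair genes as a covariate, 0 of the 9 passed in WT skin by edgeR's test, with 1 at an unadjusted p under 0.05. In that fit 3 of the 18311 genes tested passed (0.0164%), so the count says nothing particular to the keratins. Without the covariate DESeq2 passed 6, beside 34.7% of the genes it tested. With the covariate, by edgeR, Krt6b had a log2 fold change of 10.59 (adjusted p = 0.258) and Krt16 one of 3.52 (0.664), while Krt1 had 0.71 (0.893), Krt10 -0.50 (0.887) and Krt17 -0.20 (0.962).

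In KO BLM mice 143 and 144, Krt6b and Krt16 were far above all KO PBS mice, and in KO BLM mouse 141 they were not. Krt6b was at 3.46, 0.972 and 1.07 CPM in KO PBS mice and at 0.796, 708 and 1278 CPM in KO BLM mice, a log2 fold change of 8.50 (SE 1.99, adjusted p = 0.0957). Mouse 141 lay below all 3 PBS mice, with 26 counts. Krt16 was at 82.9, 12.5 and 169 CPM after PBS and at 33.0, 1036 and 1655 CPM after bleomycin, a log2 fold change of 3.36 (SE 1.24, adjusted p = 0.18). Mouse 141 again lay inside the PBS range.

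Krt6a was at 809, 129 and 664 CPM in KO PBS mice and at 301, 911 and 1514 CPM in KO BLM mice (log2 fold change 0.77, SE 0.76, adjusted p = 0.585). Krt17 was at 3431, 979 and 1519.8 CPM in KO PBS mice and at 2301, 2496 and 2719 CPM in KO BLM mice (log2 fold change 0.34, SE 0.40, adjusted p = 0.651). The KO BLM mice were close together in Krt17 and lay between mouse 136 and the other two PBS mice.

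In KO skin 0 of the 9 keratins passed edgeR's test, beside 0.306% of all genes. At an unadjusted p under 0.05 there were 4 (Krt14, Krt1, Krt6b and Krt16), beside 3665 of the 18311 genes tested. DESeq2 passed 2, Krt1 at an adjusted p of 0.0312 and Krt6b at 1.98e-06. The groups overlapped for every one of the 9 keratins, while they were separate for 19.3% of all genes. Without mouse 141, edgeR passed Krt1 (adjusted p = 0.0427), Krt6b (0.00804) and Krt16 (0.0471), beside 6.19% of all genes. Without mouse 136 it passed Krt6b (0.0381) and Krt17 (0.0486), beside 2632 of 18739 genes tested. With the hair genes as a covariate it passed Krt1 (log2 fold change 3.22, adjusted p = 0.0139), Krt10 (1.66, 0.0290) and Krt6b (8.51, 0.0300), beside 9.20% of all genes. DESeq2 passed 5.95% of the genes it tested, so in each of these fits many more genes passed than in the fit of all 12 mice by edgeR.

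Ratios within a mouse do not depend on the scaling between mice. Krt6b stood at 0.000464 to 0.00117 of Krt6a per length in WT PBS mice and at 0.543 to 0.925 in WT BLM mice. In KO PBS mice the ratio was 0.00175 to 0.00813, in KO BLM mice 143 and 144 it was 0.841 and 0.914, and in mouse 141 it was 0.00286. Krt16 stood at 0.106 to 0.15 of Krt6a in WT PBS and at 1.25 to 1.95 in WT BLM mice, with 1.76 and 1.69 in KO BLM mice 143 and 144 and 0.169 in mouse 141. The 3 WT BLM mice and KO BLM mice 143 and 144 thus shared ratios that no PBS mouse had.

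Krt17 stood at 1.21 to 1.7 of Krt14 per length in WT PBS mice and at 0.259 to 0.436 in WT BLM mice. In KO mice this ratio was 1.42 in PBS mouse 136 and 1.11 in bleomycin mouse 141, and 0.337 to 0.563 in the other 4. The 5 mice with a ratio above 1 were the 5 mice with the highest hair genes.

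**Figure D3:**
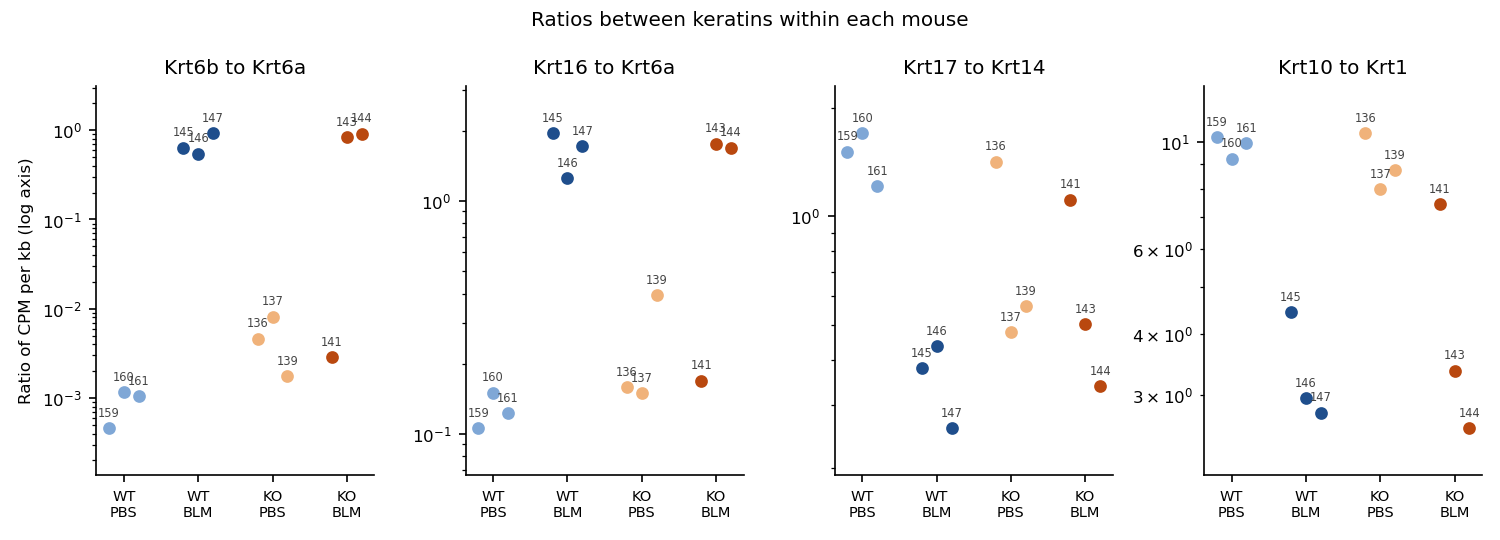
Ratio of CPM per kilobase of exon (log axis) between pairs of keratins within each mouse, 1 point per mouse with its number. In Krt6b to Krt6a and Krt16 to Krt6a, mouse 141 lies with the PBS mice, at 0.00286 and 0.169.

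As a share of the 9 keratins per length, the suprabasal keratins made up 18.6% ± 4.51 in WT PBS and 43.0% ± 1.11 in WT BLM skin (SD, n = 3). The stress keratins made up 32.6% ± 4.95 and 15.9% ± 3.82, and the basal keratins 48.8% ± 0.708 and 41.03% ± 2.93. The lower stress share lay in Krt17, which alone took 24.0% to 32.7% in WT PBS and 5.70% to 8.94% in WT BLM mice, while Krt6b reached at most 3.43%. In KO PBS skin the suprabasal share was 12.1% in mouse 136, 48.3% in mouse 137 and 35.2% in mouse 139. In KO BLM skin it was 27.7% in mouse 141, 43.4% in mouse 143 and 43.3% in mouse 144. The KO PBS mice thus covered the range of both WT groups.

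**Figure D4:**
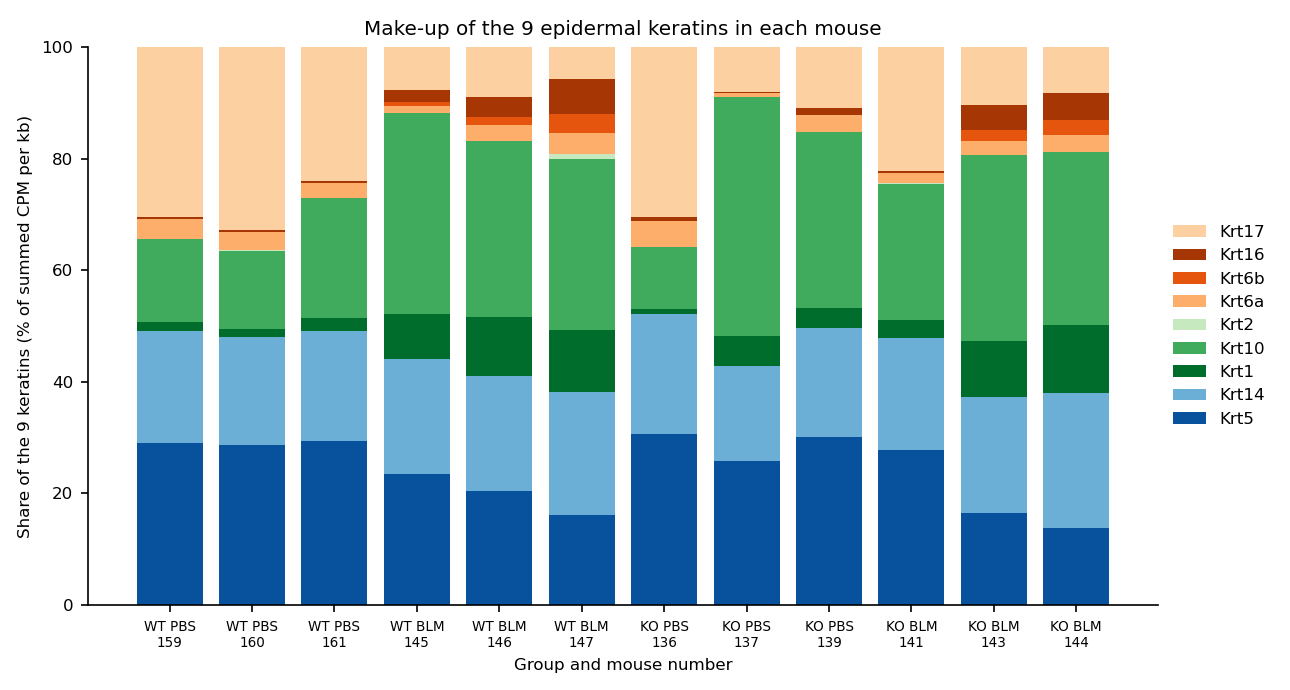
Share of each keratin in the summed CPM per kilobase of the 9 keratins (%), 1 bar per mouse, blue for basal, green for suprabasal and orange to brown for stress keratins. Krt17 takes 24.0% to 32.7% of the WT PBS bars and Krt1, Krt10 and Krt2 together 42.1% to 44.3% of the WT BLM bars.

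The levels beside the hair genes split the keratins into patterns. Krt17 was at 2279 CPM or more in all 7 mice whose mean log2 CPM of the hair genes was above 4, and at or below 1519.8 CPM in the 5 mice in which it was below 3. Krt10 was at most 3439 CPM in the 5 mice with a hair mean above 8. In KO PBS mice 137 and 139, which had few hair transcripts and no bleomycin, Krt10 was at 7083 and 5981 CPM and Krt17 at 979 and 1519.8 CPM. The Krt10 levels lay within the range of the WT BLM mice, and all but the last Krt17 level did too. Krt6b was at 0.972 and 1.07 CPM in mice 137 and 139, beside 171 CPM or more in every WT BLM mouse. It was at most 3.46 CPM in the 5 mice with a hair mean above 8, among them bleomycin mouse 141 at 0.796 CPM. Its Pearson r with the hair mean over the 12 mice was -0.52, beside 0.81 for Krt17 and -0.74 for Krt10. Krt1 was at 1849.9 and 1427 CPM in mice 137 and 139, above every WT PBS mouse and below every WT BLM mouse. Krt16 was at 12.5 and 169 CPM in these mice, below the 308 CPM of the lowest WT BLM mouse. The part of hair state in the WT differences of Krt1, Krt10, Krt6b, Krt16 and Krt17 was not tested beyond the covariate fit.

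**Figure D5:**
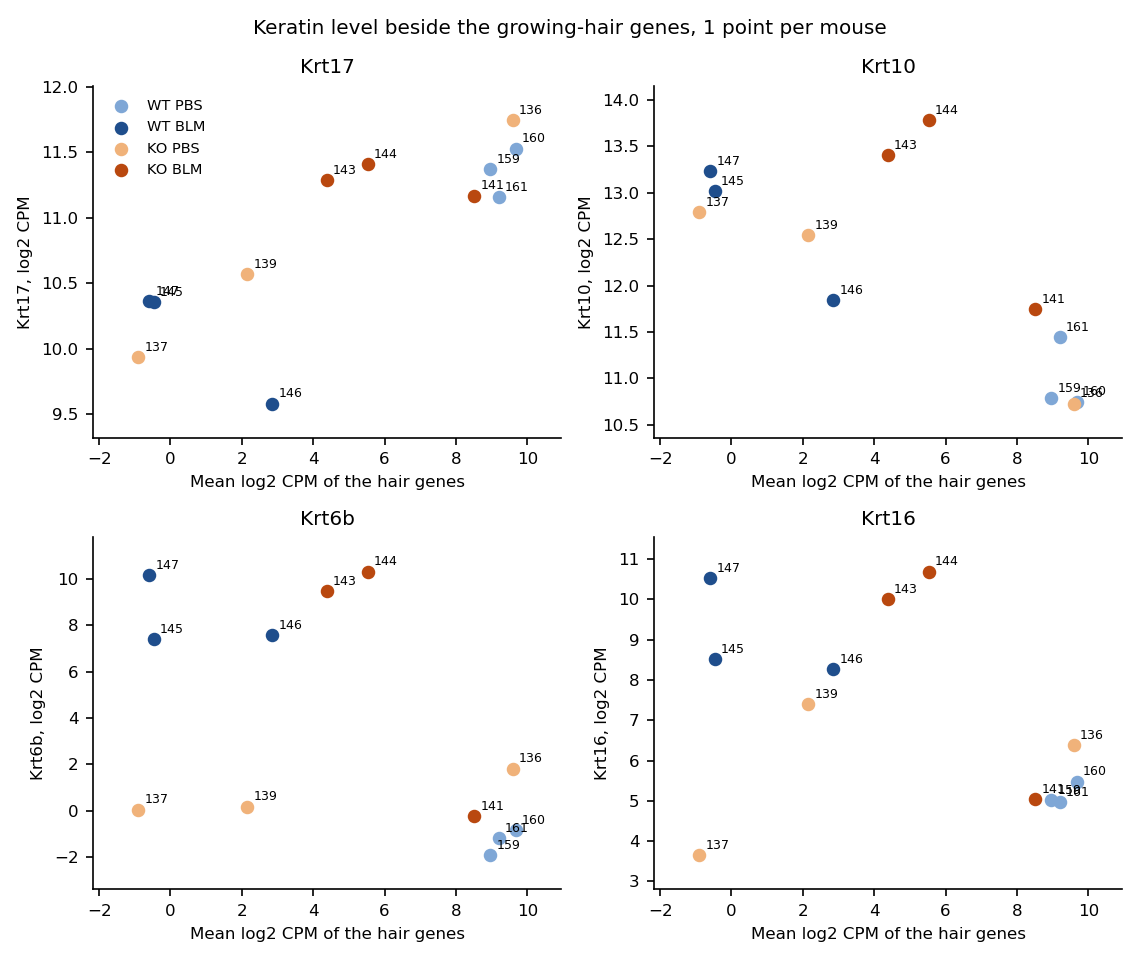
log2 CPM of Krt17, Krt10, Krt6b and Krt16 against the mean log2 CPM of 32 growing-hair genes, 1 point per mouse with its number. KO PBS mice 137 and 139 lie with the WT BLM mice in Krt10 but near 0 in Krt6b, and KO BLM mouse 141 lies near the WT PBS mice in Krt16, at 33.0 CPM.

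Genotype was compared within each treatment, using the same 12 mice. After PBS, 0 of the 9 keratins differed between KO and WT by edgeR's test, beside 0.0655% of all genes. At an unadjusted p under 0.05 there were 0, beside 3727 of the 18311 genes tested. DESeq2 passed 0, beside 3.69% of the genes it tested. Krt5, Krt14 and Krt6b were higher and Krt2 lower in every KO mouse than in any WT mouse, beside 18.9% of all genes with separate groups. The log2 fold changes were 0.45 for Krt5 (SE 0.32, adjusted p = 0.408), 0.42 for Krt14 (SE 0.47, 0.592), 2.33 for Krt6b (SE 1.69, 0.413) and -2.06 for Krt2 (SE 1.37, 0.372). Without KO PBS mouse 136, Krt10 (1.64, adjusted p = 0.0436) was higher and Krt17 (-1.07, 0.0187) lower in KO PBS than in WT PBS mice, in a fit in which 36.7% of all genes passed.

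After bleomycin, 0 of the 9 keratins differed between KO and WT by edgeR's test, beside 0.0928% of all genes. At an unadjusted p under 0.05 there were 2, beside 3043 of the 18311 genes tested. These were Krt2 (log2 fold change -5.59, SE 1.54, adjusted p = 0.213) and Krt17 (1.15, SE 0.41, 0.262). DESeq2 passed 1, Krt2 at an adjusted p of 0.00289, beside 2.99% of the genes it tested. Krt17 was the keratin with separate groups, higher in every KO BLM mouse than in any WT BLM mouse, beside 27.5% of all genes. For Krt6b the log2 difference was 0.40 (SE 1.43) and for Krt16 0.34 (SE 1.13), so differences of several-fold in either direction lie within the error. Without KO PBS mouse 136, which is in neither group but shares in the estimate of the spread, Krt17 passed the test between the bleomycin groups (adjusted p = 0.0346), as did 6.89% of all genes.

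The difference between the bleomycin responses, KO minus WT, passed edgeR's test for 0 of the 9 keratins and for 0 of all genes (0% of those tested). At an unadjusted p under 0.05 there was 1 keratin, beside 5687 of the 18311 genes tested. This was Krt17, with a difference of 1.56 on the log2 scale (SE 0.58, adjusted p = 0.112). DESeq2 placed it at an adjusted p of 0.037, where 17.8% of the genes it tested passed, and edgeR at 0.0022 without KO PBS mouse 136, where 39.9% passed. Krt17 fell with bleomycin in WT skin and had a log2 fold change of 0.34 in KO skin. The hair genes of KO BLM mice lay above those of WT BLM mice, at means of 4.37 to 8.52 against -0.60 to 2.85 on the log2 scale. The part of hair state in the Krt17 difference was not tested beyond the covariate fit. The remaining differences were -0.96 for Krt1 (SE 1.12), -1.92 for Krt6b (SE 2.20) and -0.95 for Krt16 (SE 1.60).

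Other genes of the epidermis were read from lists that were written by name, with earlier results of these data known. Their counts in WT skin stand beside the 34.0% of all genes that passed, 19.8% higher and 14.1% lower after bleomycin, and a count near these shares is no result about a list. Their KO counts at an unadjusted p under 0.05 stand beside 3665 of the 18311 genes tested. Their KO counts by DESeq2 stand beside 5.95% of the genes it tested. Of 17 other epidermal, follicle sheath and simple keratins, 15 were tested in WT skin, 1 was higher and 3 were lower after bleomycin, with a median log2 fold change of -0.98. Krt75, of the companion layer of the follicle, fell from a mean of 1298 to 25.2 CPM (log2 fold change -5.69, SE 1.27, adjusted p = 0.0115), Krt8 of simple epithelia fell by 2.87 and Krt19 by 1.48 on the log2 scale, and Krt78 rose by 1.73 (adjusted p = 0.034). In KO skin these genes had log2 fold changes of -0.92 for Krt75, -0.08 for Krt8, 0.16 for Krt19 and 0.64 for Krt78, and 0 of the 15 passed edgeR's test, with 5 at an unadjusted p under 0.05 and 4 by DESeq2. Krt75 passed in WT skin with each mouse left out, and the other 3 in 6 or 7 of the 12 such fits, each lost without any 1 of WT PBS mice 159, 160 and 161 or WT BLM mice 145 and 147.

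Of 16 genes of desmosomes and hemidesmosomes, which fasten keratin filaments to the cell border and to the basement membrane, 4 rose and 1 fell in WT skin, with a median of -0.11. Those that rose most were Dst (1.25, adjusted p = 0.025) and Plec (0.77, 0.025), which link filaments to hemidesmosomes, and the integrin chain Itgb4 (0.66, 0.0347), with Itga6 the remaining 1. The plakophilin Pkp3 of desmosomes fell (-1.10, 0.048). In KO skin the values were -0.56 for Dst, -0.10 for Plec, -0.33 for Itgb4 and 0.04 for Pkp3, and 0 of the 16 passed edgeR's test (1 at an unadjusted p under 0.05 and 1 by DESeq2). In WT skin Dst and Plec passed in 8, Itgb4 in 6 and Pkp3 in 3 of the 12 fits with 1 mouse left out, and each was lost without any 1 of WT PBS mice 159, 160 and 161 or WT BLM mouse 145. Dst and Plec are also abundant in muscle, whose genes were higher in WT BLM mice, and the part of muscle was not tested.

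Of 24 regulators of keratinocyte growth and transcription, 3 rose and 10 fell in WT skin, with a median of -0.59. The growth factor Tgfa (-1.94, adjusted p = 0.0315), the transcription factor Ovol1 (-1.61, 0.0312) and the vitamin D receptor Vdr (-1.56, 0.00675) fell most. Fosl1 (1.80, 0.0484) and Stat3 (1.10, 0.00793), transcription factors of the wound response, and Nfe2l2 (0.57, 0.0201), a regulator of the response to oxidants, rose. In KO skin Fosl1 had a log2 fold change of 2.51 (adjusted p = 0.116), Stat3 0.45, Nfe2l2 0.21, Tgfa -0.40, Ovol1 0.36 and Vdr -0.02, and 0 of the 24 passed edgeR's test (4 at an unadjusted p under 0.05 and 1 by DESeq2). Vdr and Stat3 passed in WT skin with each mouse left out, Nfe2l2 in 8, Tgfa and Ovol1 in 6 and Fosl1 in 4 of the 12 fits, and these 4 were lost without WT PBS mouse 159 and without mouse 160.

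Of 21 genes linked to injury and hyperproliferation of the epidermis, 18 were in the data, 17 were tested, 6 rose and 0 fell in WT skin by edgeR's test, with a median of 1.40. Further genes of the list, named after their values were seen, had lower means in WT BLM skin without passing. These were the envelope precursor Sprr1a (mean 1823 and 456 CPM, adjusted p = 0.0512), the gap junction proteins Gjb2 (log2 fold change -2.74, 0.145) and Gjb6 (-1.75, 0.213), and Tgm1 (-0.96, 0.103). DESeq2, RLE scaling, upper-quartile scaling, no filter on low counts and leaving out mouse 137 each called 1 gene of the list lower. The 2 compared groups alone called 3 lower, and leaving out mouse 136, alone or with mouse 141, called 4. Without mouse 136, 4050 of all 18739 genes tested were called lower, so these 4 are no result about the list. The summed level of the list was 3547 to 4317 CPM in WT PBS and 1741 to 3472 CPM in WT BLM mice, lower in every bleomycin mouse. Sprr2d, a precursor of the cornified envelope, rose from a mean of 0.124 to 33.2 CPM (log2 fold change 8.04, SE 1.73, adjusted p = 0.0101). Serpinb3a, a protease inhibitor, rose by 6.22 (adjusted p = 0.0125), from a mean of 0.150 to 11.1 CPM. S100a9, a subunit of calprotectin made by keratinocytes and neutrophils, rose by 6.14 (0.0142), from a mean of 1.55 to 110 CPM. Slpi, Tnc and Il1b rose by 3.86, 2.38 and 2.19. The WT PBS levels of Sprr2d and Serpinb3a were very low, so the size of their changes is uncertain. In KO skin Sprr2d was at 0.247 and 50.6 CPM (7.63, adjusted p = 0.0795), Serpinb3a had 5.98 (0.0968) and S100a9 4.97 (0.128). In KO skin 0 of the 17 passed edgeR's test, while 10 had an unadjusted p under 0.05 and DESeq2 passed 8, all higher. The KO median of this list was 1.98, beside -0.007 over all genes. Sprr2d and Slpi passed in WT skin with each mouse left out, while Serpinb3a was lost without WT PBS mouse 159, S100a9 without any 1 of the WT PBS mice, Tnc without mouse 159 or 160, and Il1b without any 1 of these or WT BLM mouse 147. With the hair genes as a covariate, 0 genes of these 4 lists passed edgeR's test in WT skin, where 3 of all genes passed. At an unadjusted p under 0.05 there were 4 other keratins, 0 desmosome and hemidesmosome genes, 1 regulator and 7 injury genes. The count of all genes at that unadjusted p is not given for this fit.

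The genes whose log2 CPM was most like the mean of each role over the 12 mice were sought among the 15209 genes that averaged 1 CPM or more, as a description. Genes close to the basal mean included Tmem125 (Pearson r = 0.971) and Fam129b (0.967). The suprabasal mean was closest to Nt5c2 (0.925), Tbc1d22a (0.923) and Adcy3 (0.915). The mean of the stress keratins was closest to S100a9 (0.988), Klk6, a protease of the epidermis (0.982), and B4galnt1 (0.976). The log2 CPM were averaged without scaling, so keratins with a wide range weigh most in a mean. In the stress mean these were Krt6b and Krt16 (r = 0.934 with each other), while Krt17 had r = -0.26 with Krt6b. In the suprabasal mean Krt2 had r = 0.19 with Krt1. S100a9 was at 1.32 to 1.91 CPM in WT PBS mice, 24.6 to 256 in WT BLM mice, 0.943 to 6.15 in KO PBS mice, 144 and 167 in KO BLM mice 143 and 144, and 2.72 in mouse 141. The 12 mice share groups and hair states, so these likenesses are not independent of them.

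Promoters of members were looked up in a RefSeq table (GRCm38.p6, 250 bases before to 50 after the start). None was found for Krt1, Krt6a, Krt6b, Krt16 and Krt17, and the start found for Krt14 was not that of its main transcript. A keratin of the basal and a keratin of the suprabasal layers are shown as examples, since Krt10 separated the WT groups and Krt5 did not. TATAA, searched on both strands, matched in 24.9% of 32851 promoters, with 1 match in Krt10, set in capitals, and 0 in Krt5. Krt2, whose WT groups overlapped, also had 1 match, and a link between match and response was not tested. The AP-1 letters TGANTCA, on both strands, matched in 7.81% of promoters and in neither Krt5 nor Krt10. The Krt5 promoter is chr15:101712856-101713155 and that of Krt10 chr11:99389315-99389614, both read on the minus strand.
Krt5: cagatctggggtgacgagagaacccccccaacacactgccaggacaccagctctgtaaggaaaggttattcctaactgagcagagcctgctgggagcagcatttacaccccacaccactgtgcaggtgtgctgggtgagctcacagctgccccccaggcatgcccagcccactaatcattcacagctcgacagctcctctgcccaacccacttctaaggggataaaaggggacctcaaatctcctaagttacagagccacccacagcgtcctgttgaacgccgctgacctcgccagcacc
Krt10: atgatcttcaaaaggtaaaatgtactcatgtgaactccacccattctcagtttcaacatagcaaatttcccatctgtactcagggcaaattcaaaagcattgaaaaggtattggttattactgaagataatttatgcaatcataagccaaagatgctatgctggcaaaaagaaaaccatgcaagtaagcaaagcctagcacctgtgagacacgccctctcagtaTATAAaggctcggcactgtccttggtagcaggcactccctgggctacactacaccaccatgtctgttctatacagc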

How the data were processed

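Per the labels and the methods, the authors sequenced stranded mRNA libraries in read pairs, made counts per gene and used DESeq2. The deposited file holds raw counts for 55453 gene symbols in 12 columns headed by mouse number. The submitters' processing notes name the build GRCm38.p6 and MultiQC 1.7, and the aligner, the counter and the annotation are not given in the sources used here. Counts were filtered with edgeR's filterByExpr (minimum count 10, minimum total 15, 18311 genes), normalized by TMM and fitted as 4 group means in edgeR 4.0.16 (R 4.3.3) with a quasi-likelihood test of 5 contrasts. P-values were adjusted by Benjamini-Hochberg over all genes tested, with a threshold of 0.05. Mice had 26473700 to 38890450 counts each, and the biological coefficient of variation was 34.9%. CPM use the TMM library size, and log2 CPM a prior count of 2. Gene models came from GENCODE M21, and levels per length use the union of exons. The members, lists and alternatives were chosen with earlier results of these data known. The text names all members, up to 3 genes that rose and 3 that fell most in each epidermal list in WT skin (and those left over where few remained), and 3 genes most like each role, of which 1 is not reported here. Alternatives were RLE and upper-quartile scaling, no filter, a mean of at least 1 CPM, DESeq2 1.42.0, a hair covariate, the compared groups alone, left-out mice and transcript lengths. The fit was tested on simulated counts, drawn for each gene separately. That simulation held no state shared by many genes, such as hair state, so it says nothing about results that depend on one.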

Additional observations from a re-analysis of the deposited data

How the results depend on the processing

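No paired analysis was possible because every mouse has its own number. With 1 mouse left out, the keratins that passed numbered 1 to 6 in WT skin, with 1 without WT PBS mouse 159 or 160 or WT BLM mouse 147, 0 to 3 in KO skin, 0 to 2 between the PBS groups, 0 to 1 between the bleomycin groups and 0 to 1 for the difference between the responses. With the hair covariate they numbered 0 in WT and 3 in KO skin, without a filter 1 in KO skin, with DESeq2 2 in KO skin, 1 between the bleomycin groups and 1 for the difference, and without mice 136 and 141 together 4 in KO skin, 3 between the PBS groups and 1 for the difference. In this last fit 22.3%, 40.9% and 38.6% of all genes passed. With 1 mouse left out, the share of all genes passing in WT skin ran from 13.9% (without mouse 160) to 45.7% (without mouse 136). Without mouse 147 it was 17.6%. It ran from 0.0320% to 36.7% between the PBS groups and from 0.0267% to 6.89% between the bleomycin groups. For the difference it ran from 0% to 39.9%, and in KO skin 0 to 2632 genes passed. The swings in the keratin counts thus say nothing particular to the keratins. The suprabasal share in WT BLM skin was 47.0% with transcript lengths, beside 43.0%.

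The hair covariate turned the sign of the log2 values of Krt5 (-0.15) and Krt10 (-0.50) in WT skin, of Krt1 (-0.54), Krt10 (-0.41) and Krt17 (0.049) between the PBS groups, and of Krt5 (0.31), Krt1 (2.52), Krt10 (2.16) and Krt6a (-0.42) in the difference. Leaving out mice 136 and 141 turned Krt2 in KO skin (-0.72) and Krt6a between the PBS groups (-0.16). With 1 mouse left out, signs turned in values that missed the threshold. They ran from -0.40 to 0.96 for Krt6a in WT skin, from -0.082 to 0.23 for Krt5 and -0.41 to 1.21 for Krt2 in KO skin, and from -0.16 to 0.74 for Krt6a between the PBS groups. Between the bleomycin groups they ran from -0.022 to 0.47 for Krt5, -0.25 to 1.02 for Krt1, -0.0061 to 0.83 for Krt10, -0.14 to 1.44 for Krt6a, -0.50 to 1.87 for Krt6b and -0.43 to 1.43 for Krt16. In the difference they ran from -0.47 to 0.017 for Krt5, -0.38 to 0.53 for Krt14, -0.41 to 1.17 for Krt6a and -1.71 to 0.14 for Krt16. The cause was not tested. Of 891 recomputed values, 799 kept their direction and side of the threshold. Most of the 891 belong to results that missed the threshold in the main fit, so the 799 say little about the WT calls. All 27 values that lost the threshold lay in those calls. With 1 mouse left out, Krt6b passed in WT skin in all 12 fits, Krt1 in 9, Krt16 in 8, Krt2 in 6 and Krt17 in 4. RLE and upper-quartile scaling kept 5 keratins past the threshold in WT skin.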
